A study of Mus musculus with 8 samples.

Results

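The genes of vascular endothelial growth factor (VEGF) and angiopoietin signaling were followed in ID8 IP2 cells with and without an active Notch3 intracellular domain. The 10 genes were taken by symbol from the count tables: the ligands Vegfa, Vegfb and Vegfc, the receptors Flt1, Kdr and Flt4, the co-receptors Nrp1 and Nrp2, and the angiopoietins Angpt1 and Angpt2. All 10 were among the 23284 symbols counted, and all 10 were among the 12430 genes with enough counts to be tested. ID8 IP2 is a mouse ovarian cancer line derived from ovarian surface epithelium and passaged through C57BL/6 mice, here also carrying a luciferase-mCherry lentivirus. Control cells received the empty pCCL vector, and Notch3IC cells received pCCL encoding HA-tagged Notch3 codons 1664 to 2318 followed by IRES-GFP. Each of Sets 1 to 4 was a separate lentiviral infection with its own matched Control, so that 4 Control and 4 Notch3IC libraries of stably infected cells were compared. By the study methods, later testing pointed to mycoplasma in the ID8 IP2 lines of both conditions, and its part in any value below was not tested. Library totals ran from 19013578 to 28208072 counts in Control and from 15524262 to 27107061 in Notch3IC.

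VEGF ligands bind receptor tyrosine kinases. Flt1 (VEGFR1) takes Vegfa, Vegfb and placental growth factor and is also made as a soluble form that traps ligand, Kdr (VEGFR2) carries most of the endothelial growth signal of Vegfa, and Flt4 (VEGFR3) takes Vegfc and is known from lymphatic endothelium. Neuropilins are co-receptors that also bind semaphorins. Angpt1 activates the receptor Tek (Tie2) and Angpt2 mostly opposes it. Ovarian carcinoma is known for VEGF-dependent vessels and ascites, but the libraries here were of cultured tumor cells with no vessels.

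Flt1 and Vegfc were higher in Notch3IC cells, and Flt4, the VEGF receptor that Control cells held in quantity, was lower in all 4 sets. Vegfa and Vegfb, the most abundant ligand genes, were called in none of the fits over all 8 libraries. Notch3IC was compared with Control by edgeR's quasi-likelihood test, and a gene was called at a Benjamini-Hochberg adjusted p below 0.1 over all genes tested together with a change of 1 or more on the log2 scale in either direction, the thresholds of the study. Of the 10 genes, 2 were called higher, where 3.4% of all genes tested were, and 0 were called lower, where 0.74% were. Without adjustment, Flt1, Vegfc, Nrp1, Flt4, Nrp2 and Vegfa had a p under 0.05 in that fit, as did 2289 of the 12430 genes. Once the set was added as a block, 2 were called higher (5.19% of all genes tested) and 1 lower, Flt4 (2.53%). DESeq2 called the same 2 higher, with 5.05% of the genes it tested, and Flt4 lower, with 1.37%. The 4 libraries of one condition all lay above the 4 of the other for Flt1 and Vegfc (higher in Notch3IC, 7.08% of all genes tested) and for none of the 10 in the lower direction (3.75%). The Notch3IC library was above its own Control in 4 of 4 sets for Flt1, Vegfc and Angpt1 (21% of all genes tested) and below it for Vegfa, Flt4 and Nrp2 (19.4%).

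The promoters of the called members Flt1 and Vegfc are shown beside that of Kdr, which held the one full match to the Rbpj motif. RefSeq's table for GRCm38.p6 held promoters of 8 of the 10 genes, and Angpt1 and Angpt2 were not in it. The 250 bases before the start site are printed 5′ to 3′ on the strand of the gene. They lie at chr5:147726012-147726261 on the minus strand for Flt1, at chr8:54077282-54077531 on the plus strand for Vegfc and at chr5:75978456-75978705 on the minus strand for Kdr. Capitals mark GTGGGAA, the motif of Rbpj, the DNA-binding partner of the Notch intracellular domain.
Flt1: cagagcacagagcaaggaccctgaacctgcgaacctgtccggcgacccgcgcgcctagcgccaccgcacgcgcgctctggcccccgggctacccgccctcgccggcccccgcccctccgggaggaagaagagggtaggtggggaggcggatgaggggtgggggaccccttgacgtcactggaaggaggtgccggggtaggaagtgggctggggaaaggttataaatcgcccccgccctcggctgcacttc
Vegfc: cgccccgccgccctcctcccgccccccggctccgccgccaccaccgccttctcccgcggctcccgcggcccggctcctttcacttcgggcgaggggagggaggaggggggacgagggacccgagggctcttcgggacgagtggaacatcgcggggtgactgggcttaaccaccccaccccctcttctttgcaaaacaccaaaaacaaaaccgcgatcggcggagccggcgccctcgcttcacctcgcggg
Kdr: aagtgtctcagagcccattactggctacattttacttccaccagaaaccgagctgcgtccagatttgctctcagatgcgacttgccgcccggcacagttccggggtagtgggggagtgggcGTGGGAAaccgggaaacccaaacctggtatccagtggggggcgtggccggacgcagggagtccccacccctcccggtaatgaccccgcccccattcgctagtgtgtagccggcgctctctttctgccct
The search covered 4 motifs on both strands of the full window, from 250 bases before to 50 after the start: GTGGGAA, its shorter core TGGGAA, the E-box CACGTG that Hey factors bind, and ACGTG, the core bound by hypoxia factors, which lies within CACGTG. Of 32851 mouse promoters in the table, 6.38% held GTGGGAA, 25.6% TGGGAA, 7.15% CACGTG and 19.6% ACGTG. Among the 8 genes, Kdr held GTGGGAA, 129 bases before its start. Each of 2 promoters of Vegfa held TGGGAA, and 1 of them also held ACGTG. None of these letters occurred in the windows of Flt1, Flt4, Vegfc, Vegfb, Nrp1 or Nrp2, which says nothing of sites elsewhere.

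The labels were checked on Notch3 itself and on its target genes. Values below are normalized counts, that is, each count over its TMM-scaled total times the mean total, and a run of 4 values gives Sets 1, 2, 3 and 4 in that order. Notch3 had 38.7, 40.6, 70.8 and 42.0 normalized counts in Control, against 4321, 467, 9220 and 5842 in Notch3IC. Hey1, a transcriptional repressor induced by Notch, had 29.7, 20.3, 56.5 and 34.1 against 4079, 438, 10641 and 8014. Both genes separated the conditions completely, and in both the Notch3IC library of Set 2 lay far below the other 3. No Control library held more than 2 counts of Heyl, which was at least 1113-fold higher in Notch3IC cells, with each Control library set to a floor of 3 counts. That bound fell to 709-fold without the Notch3IC library of Set 3. Within the sets the bound was 725-fold, 60.1-fold, 2389-fold and 1644-fold. Nrarp, a feedback inhibitor of Notch, had 13, 8, 35 and 36 counts in Control and 3433, 151, 6560 and 4786 in Notch3IC, and was called higher (edgeR adjusted p = 0.0169). Reads of the insert and of the endogenous gene cannot be told apart in the counts.

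The tissue label was checked on marker genes. Of 16 markers of ovarian surface epithelium 13 were tested, and Wt1, Krt8, Krt18 and Upk3b, the most abundant of them per length, were well counted in every library, with 504 counts or more. The other 3 were hardly counted: Epcam, an epithelial adhesion molecule, had 2 to 12 counts, the keratin gene Krt7 1 to 46 and Lgals7 2 to 47. Amhr2, a receptor of the ovary, had 16 and 10 counts in Set 1 (Control and Notch3IC) and 109 to 395 in the other sets. Of 16 endothelial markers 3 were tested. Erg, Cldn5 and Sox17 were at 0 in every library, and Cdh5, the endothelial cadherin, had at most 2 counts. Tek and Tie1, the angiopoietin receptors, had at most 1 and 3 counts. The summed level of the endothelial list was 644, 978, 1244 and 1242 normalized counts in Control and 210, 377, 633 and 469 in Notch3IC, most of it Esam, an adhesion molecule of tight junctions. Not all of the list was near 0. Egfl7 had 27 to 69 counts and Pecam1 9 to 30, and neither was called over all 8 libraries, although Pecam1 was called higher in the block fit without Set 2. Sox18, an endothelial transcription factor, had 1, 0, 7 and 0 counts in Control and 14, 1, 67 and 43 in Notch3IC, too few for the edgeR fit over all 8 libraries. Sox18 was called higher by DESeq2, and by edgeR where the Notch3IC library or both libraries of Set 2 were left out. The part of these transcripts in the values below was not tested. In such bulk libraries, fewer cells with an mRNA and less of it per cell cannot be told apart.

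**Figure D1:**
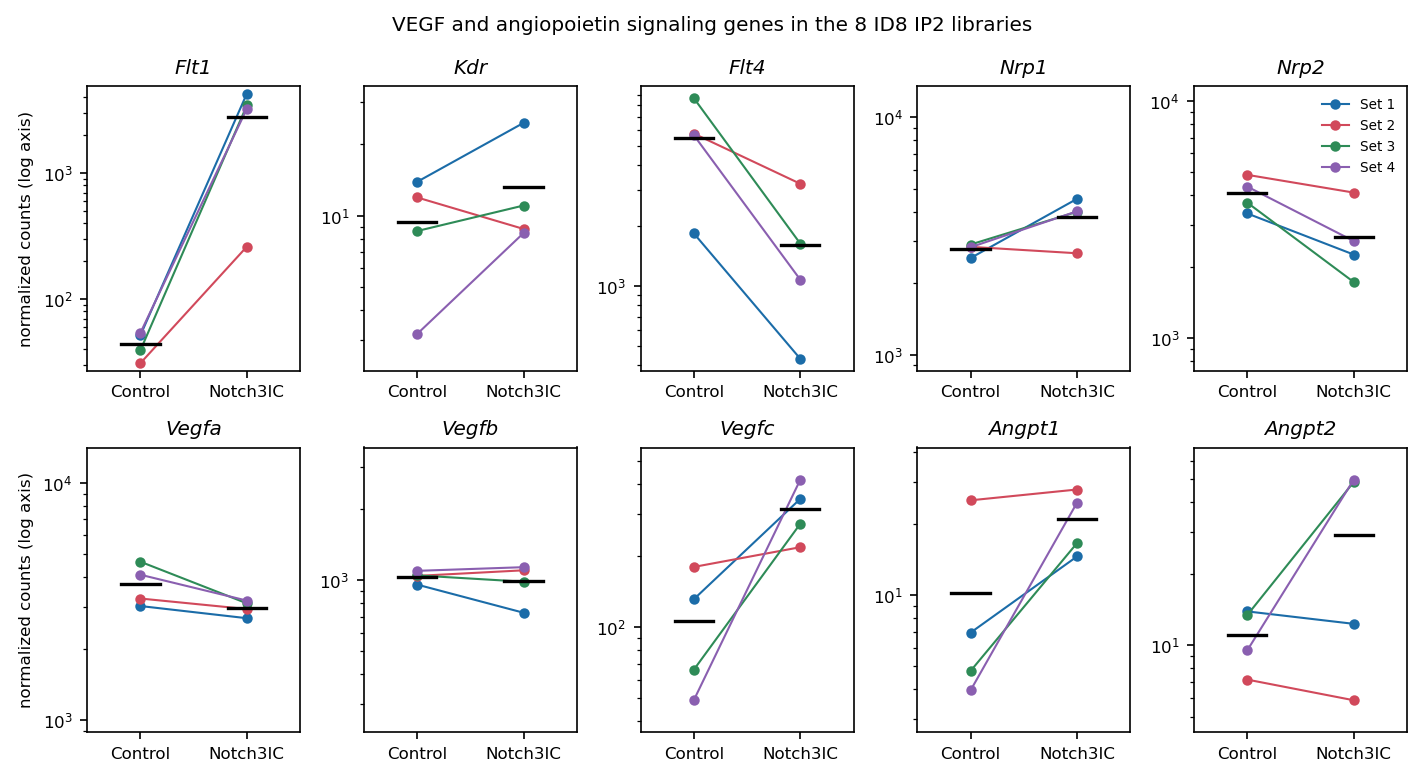
Normalized counts (log axis) of the 10 VEGF and angiopoietin genes in the Control and Notch3IC libraries. Points are libraries, lines join the libraries of a set, and black bars are means of 4. Flt1 and Vegfc lie higher in every Notch3IC library than in any Control library, and the line of Flt4 falls in all 4 sets.

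Flt1 changed most. In GRCm38 it lies on chromosome 5 from 147561604 to 147726011 on the minus strand, and no other annotated gene overlaps its exons. The Control libraries held 51.6, 31.0, 39.2 and 53.9 normalized counts. The Notch3IC libraries held 4261, 261, 3434 and 3233. Every Notch3IC library thus lay above every Control library, with Set 2 more than an order of magnitude below the other 3. The mean rose from 43.9 ± 10.7 in Control to 2797 ± 1748 in Notch3IC (SD, n = 4 libraries each), a log2 fold change of 5.98 (SE 0.81, 95% interval 4.12 to 7.83, edgeR adjusted p = 0.0169). Within the sets the log2 ratio was 6.36, 3.05, 6.43 and 5.89. The call held with any 1 library left out, at log2 fold changes between 5.71 and 6.35 and adjusted p up to 0.0854. It did not hold without a whole set in 2 cases, where the adjusted p became 0.224 without Set 3 and 0.221 without Set 4, at log2 fold changes of 5.81 and 6.02. In the edgeR fit with condition alone, 1 gene of all tested was called without Set 3 and 0 without Set 4, where 1101 and 1011 genes had an unadjusted p under 0.05. The block fit called 59 genes higher and 22 lower without Set 3, and 129 and 30 without Set 4. In it Flt1 was called without Set 4 (adjusted p = 0.0927) but not without Set 3 (0.105), nor without Set 1 (0.110). The counts do not separate the membrane receptor from the soluble form of Flt1.

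Flt4 moved the other way. It lies on chromosome 11 from 49609263 to 49652739 on the plus strand, with no overlapping gene. The Control libraries held 1827, 5773, 8685 and 5668 normalized counts, and the Notch3IC libraries 431, 3237, 1624 and 1071. Each Notch3IC library was below its own Control, but the groups overlapped, since the Control library of Set 1 was lower than the Notch3IC library of Set 2. Means were 5488 ± 2813 (Control) and 1591 ± 1201 (Notch3IC, SD, n = 4), a log2 fold change of -1.79 (SE 0.63, adjusted p = 0.174), which did not pass. With the set as a block, Flt4 fell by 1.94 on the log2 scale (SE 0.29, adjusted p = 0.0277), and DESeq2 gave a log2 fold change of -1.80 with an adjusted p of 0.0234. Within the sets the level was 4.24-fold, 1.78-fold, 5.35-fold and 5.29-fold lower. In the fit with condition alone, single libraries decided the call: leaving out the Control library of Set 1 gave an adjusted p of 0.0983, and leaving out the Notch3IC library of Set 2 gave 0.0497, at log2 fold changes of -2.08 and -2.40. Without both libraries of Set 1 it was 0.0844 (log2 fold change -1.77), and without those of Set 2 it was 0.0994 (-2.37). The other 6 single omissions gave an adjusted p of 0.215 to 0.404, and it was 0.672 without Set 3 and 0.724 without Set 4. The call of the block fit was kept without Set 2 and lost without Set 1 (adjusted p = 0.126), Set 3 (0.136) or Set 4 (0.139). The log2 fold changes in those 3 fits were -1.90, -1.77 and -1.78, so the change stayed about as large.

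Kdr was scarcely counted in any library. It had 14, 10, 9 and 4 counts in Control and 22, 6, 12 and 10 in Notch3IC. The groups overlapped and the order turned in Set 2. The log2 fold change was 0.51 (95% interval -0.70 to 1.72, edgeR adjusted p = 0.679), and Kdr was not called. The part of its low counts in this was not tested. The log2 fold change became 0.044 once the high Notch3IC library of Set 1 was left out and 0.20 once the Control library of Set 4 was.

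Seen per length, the receptor mixture turned over. Levels were given as RPKM, reads per kilobase of exon scaled to the library total, over the merged exons of each gene, so that genes could be compared. Of the summed RPKM of Flt1, Kdr and Flt4, Flt4 made up 97.6%, 99.5%, 99.6% and 99.4% in Control. In the Notch3IC libraries its share was 14.1%, 95.1%, 43.6% and 35.1%. Flt1 rose from shares of 1.68%, 0.326%, 0.274% and 0.576% to 85.1%, 4.67%, 56.2% and 64.6%. Set 2 kept Flt4 as the main receptor, and in Sets 1, 3 and 4 of Notch3IC the larger share was Flt1. Kdr stayed at or below 0.735% in all 8. The summed RPKM of the 3 receptors was 9.74, 30.2, 45.4 and 29.7 in Control and 15.9, 17.7, 19.4 and 15.9 in Notch3IC. These shares depend on the length used, since the merged exons of Flt1 span 13504 bases and its longest transcript 6895.

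**Figure D2:**
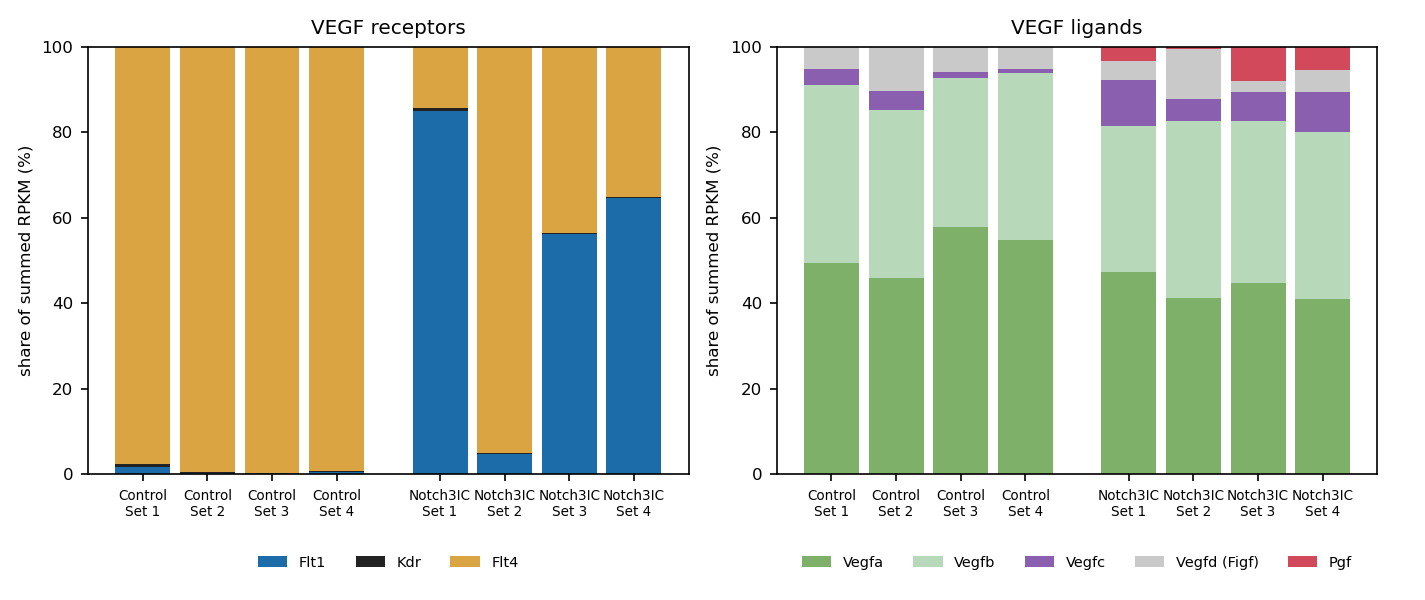
Share (%) of the summed RPKM that each VEGF receptor gene (left) and VEGF ligand gene (right) took in each library, over merged exon lengths. Flt4 fills at least 97.6% of the receptor bar in every Control library and 14.1% to 95.1% in Notch3IC, while Vegfa and Vegfb fill most of the ligand bar throughout.

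Vegfc, the ligand of Flt4, was the ligand member that changed. It lies on chromosome 8 from 54077606 to 54187096 on the plus strand. It had 131, 179, 66.0 and 49.2 normalized counts in Control and 347, 217, 272 and 417 in Notch3IC. The groups did not overlap, although the lowest Notch3IC library and the highest Control library, both of Set 2, lay close together. The mean rose from 106 ± 60.0 to 313 ± 87.4 (SD, n = 4), a log2 fold change of 1.57 (SE 0.41, 95% interval 0.62 to 2.51, edgeR adjusted p = 0.0825). Within the sets the log2 ratio was 1.40, 0.28, 2.03 and 3.07. The call was held by few libraries. It was lost when leaving out the Notch3IC library of Set 1 (0.140 as adjusted p), the Control (0.215) or Notch3IC (0.166) library of Set 3, and the Control (0.185) or Notch3IC (0.234) library of Set 4. It was also lost without Set 1 (0.141), Set 3 (0.401) or Set 4 (0.491).

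Vegfa, the main angiogenic ligand, had the highest mean RPKM of the 10 genes over merged exons. It had 3022, 3251, 4646 and 4095 normalized counts in Control and 2685, 2935, 3103 and 3186 in Notch3IC. The groups overlapped, and each Notch3IC library was below its own Control, as 19.4% of all genes tested were in 4 of 4 sets. The log2 fold change was -0.33 (SE 0.14, adjusted p = 0.265). With the set as a block it was -0.32 with an adjusted p of 0.0625, below 0.1 but with a change under the fold limit, and in that fit 27.1% of all genes tested had an adjusted p below 0.1 at any fold. Vegfb, which binds Flt1 and not Kdr, had 957, 1041, 1046 and 1093 normalized counts in Control and 728, 1099, 984 and 1133 in Notch3IC. It was higher in 2 sets and lower in 2, and its log2 fold change of -0.069 (95% interval -0.39 to 0.25, adjusted p = 0.851) turned to 0.054 without the Notch3IC library of Set 1.

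Neither neuropilin was called. Nrp1, co-receptor of Vegfa and class 3 semaphorins, had 2552, 2846, 2911 and 2835 normalized counts in Control and 4534, 2674, 3999 and 4018 in Notch3IC. The Notch3IC libraries of Sets 1, 3 and 4 lay above every Control library, and that of Set 2 lay among them. The log2 fold change was 0.45 (SE 0.15, adjusted p = 0.161, or 0.0972 with the set as a block). Nrp2, the neuropilin that partners Flt4, had 3353, 4878, 3724 and 4352 against 2250, 4106, 1723 and 2566. It was lower in all 4 sets, with overlapping groups, and its log2 fold change was -0.62 (SE 0.25, adjusted p = 0.243). With the set as a block it was -0.67 (adjusted p = 0.0368), still under the fold limit. Of the summed RPKM of the pair, Nrp1 held 45.5% ± 3.39 in Control and 63.6% ± 13.4 in Notch3IC (SD, n = 4), with 44.1% in the Notch3IC library of Set 2. Over the longest transcript its share was 56.0% ± 3.39 in Control and 72.2% ± 12.1 in Notch3IC, so that which neuropilin was the larger in Control depended on the length used.

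The angiopoietins were rare transcripts. Angpt1 had 7, 21, 5 and 5 counts in Control and 13, 19, 18 and 29 in Notch3IC. After normalization it was higher in all 4 sets, with 25.1 in the Control library of Set 2 above 3 of the Notch3IC libraries, at 14.5, 16.6 and 24.5. Its log2 fold change was 1.07 (SE 0.59, adjusted p = 0.384), and it was called when the Control library of Set 2 was left out (1.97, adjusted p = 0.0600) or without both libraries of that set (1.82, 0.0457). Of its exon bases, 14.2% overlap Gm17473 on the opposite strand, and the strand setting of the counts is not given in the sources used here. Angpt2 had 14, 6, 14 and 12 counts in Control and 11, 4, 53 and 59 in Notch3IC. It was thus high in the Notch3IC libraries of Sets 3 and 4 and within the Control range or below it in Sets 1 and 2. Its log2 fold change was 1.43 (SE 0.64, adjusted p = 0.285), and leaving out the Notch3IC library of Set 2 brought a call (1.74, adjusted p = 0.0772).

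**Figure D3:**
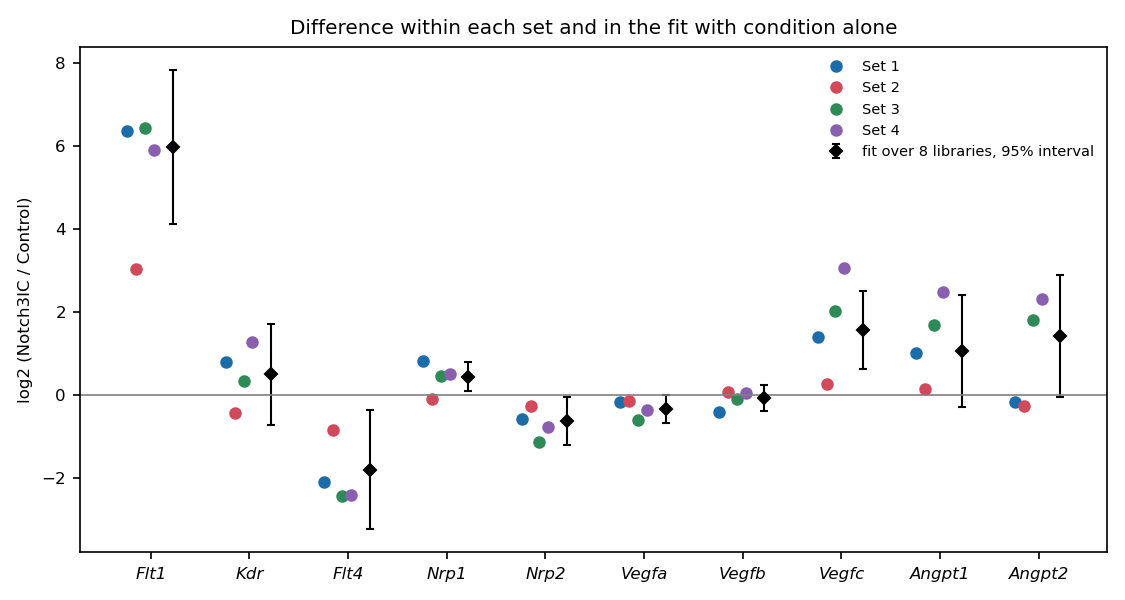
Log2 ratio of Notch3IC to Control for each gene within each set (colored points, pseudocount 0.5) and the log2 fold change of the fit over all 8 libraries with its 95% interval (black). The point of Set 2 is nearest to 0 for 7 of the 10 genes, among them Flt1 at 3.05 and Flt4 at -0.83.

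The sets differed in the size of the change, and Set 2 differed least. The log2 ratio of Notch3 was 3.51 in Set 2 and 6.79, 7.01 and 7.10 in Sets 1, 3 and 4. For 7 of the 10 genes the log2 ratio nearest to 0 was that of Set 2, which was so for 53% of all genes tested and for 88% of the 515 genes called. The part of the Notch3 level in these differences was not tested, and 1 pair of libraries in a set gives no test within it. Set 2 also held the shallowest libraries, with totals of 19013578 and 15524262.

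**Figure D4:**
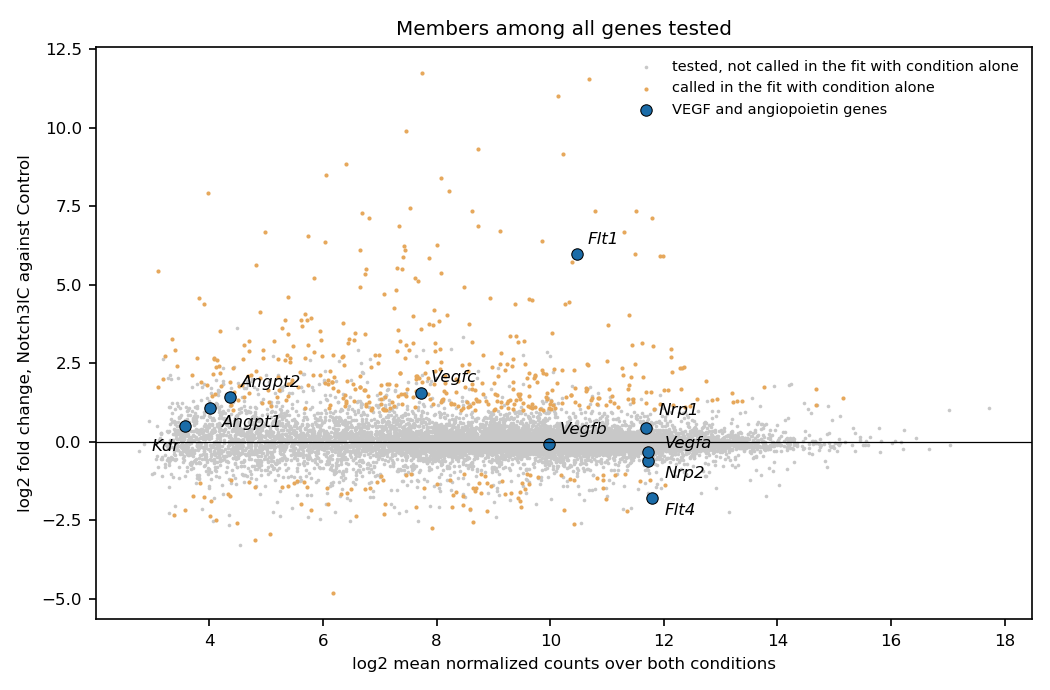
Log2 fold change of Notch3IC against Control over log2 mean normalized counts for the 12430 genes tested, with those called in the fit with condition alone in orange and the 10 members in blue. Flt1 at 5.98 stands among the strongly raised genes of its abundance, while Vegfb, Vegfa, Nrp1 and Nrp2 lie near the axis and Flt4 at -1.79 lies below the main cloud.

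Per length, the order of the 10 genes in Control cells was Vegfa (mean RPKM 37.5), Flt4 (28.6), Vegfb (27.6), Nrp2 (14.8), Nrp1 (12.2) and Vegfc (1.86), with Flt1 (0.139), Angpt2 (0.128), Angpt1 (0.0839) and Kdr (0.0446) far below. The ranges of the 4 libraries overlapped between neighbours except between Vegfb and Nrp2, Nrp1 and Vegfc, and Vegfc and Flt1. In Notch3IC cells the order was Vegfa (29.8), Vegfb (26.3), Nrp1 (16.7), Nrp2 (9.63), Flt1 (8.88), Flt4 (8.28), Vegfc (5.48), Angpt2 (0.339), Angpt1 (0.172) and Kdr (0.0627). The first 7 overlapped from neighbour to neighbour, and the ranges were apart between Vegfc and Angpt2 and between Angpt1 and Kdr. The mean level of Flt1 thus moved from the range of the angiopoietins to that of Flt4, and Kdr had the lowest mean of the 10 in both conditions. The order depended on the length. Over the longest transcript Nrp1 (32.8) stood above Nrp2 (26.0) in Control. In Notch3IC cells Nrp1 (44.7) then stood above Vegfa (37.0) and Vegfb (33.0), and Flt1 (17.4) above Nrp2 (17.0).

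The wider family was described on a list of 10 further ligands, receptors and receptor partners, of which 7 were tested, 3 called higher and 1 lower (3.4% and 0.74% of all genes tested), with a median log2 fold change of 0.30 beside -0.0095 over all genes tested. Pgf, placental growth factor, a ligand of Flt1, had 1, 1, 0 and 3 counts in Control and 113, 21, 405 and 336 in Notch3IC. Its mean of 203 ± 154 normalized counts in Notch3IC (SD, n = 4) was at least 68.9-fold higher than the floor of 3 counts per Control library, and at least 8.59-fold higher in Set 2 alone (edgeR adjusted p = 0.0169 over all genes tested). Without the Notch3IC library of Set 3 the bound was 49.8-fold. Plxnd1, a plexin that serves as a semaphorin receptor with neuropilins, rose from a mean of 134 ± 120 to one of 7992 ± 4218, by 5.92 on the log2 scale (SE 0.79, edgeR adjusted p = 0.0169). Both genes kept their calls with any 1 library left out. Without all of Set 3 or all of Set 4 neither was called (edgeR adjusted p up to 0.221). In the block fit Pgf was called whichever set was left out, and Plxnd1 only without Set 2. Itgb3, an integrin subunit that associates with Kdr, rose from 584 ± 304 to 3506 ± 1805 (log2 fold change 2.59, edgeR adjusted p = 0.0456), with a log2 ratio of 0.10 in Set 2. Ptprb, the phosphatase VE-PTP that acts on Tek, fell by 1.46 on the log2 scale (adjusted p = 0.0829), from 165 ± 32.0 to 60.3 ± 36.4 normalized counts. Gipc1, a scaffold protein that binds Nrp1 and the most abundant of the list per length, had a log2 fold change of 0.30 and was not called. Angpt4, an angiopoietin ligand of Tek, fell below the filter on low counts, as did Tek and Tie1. It had 1, 2, 3 and 4 counts in Control and 12, 8, 13 and 9 in Notch3IC, and was called higher by DESeq2 (5.05% of its genes) and by edgeR with no expression filter. Itgb3 lost its call without any 1 of the 4 libraries of Sets 3 and 4 (adjusted p up to 0.147), and Ptprb without any 1 library but the Notch3IC library of Set 2 (up to 0.239). Scaled by library totals only, Ptprb was not called either (log2 fold change -1.48, adjusted p = 0.103).

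With the other ligands beside them, Vegfa held 52.0% ± 5.36 of the summed ligand RPKM in Control and 43.6% ± 2.97 in Notch3IC (SD, n = 4 libraries). Vegfb held 38.7% ± 2.87 and 38.1% ± 2.94. Vegfc held 2.69% ± 1.64 and 8.08% ± 2.42, and Pgf 0.0239% ± 0.0192 and 4.31% ± 3.10. Vegfd, listed in the files under its older symbol Figf, held 6.57% ± 2.53 and 5.92% ± 3.86. Vegfa and Vegfb together thus supplied most ligand transcripts in each of the 8 libraries.

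Among 7 angiopoietin-like genes, secreted relatives that do not bind Tek, 5 were tested with a median log2 fold change of -0.24. Of these 5, 1 was called higher and 1 lower, beside 3.4% and 0.74% of all genes tested. Angptl2, the most abundant of them, rose from 925 ± 660 to 4035 ± 2699 normalized counts (a log2 change of 2.13, SE 0.59, edgeR adjusted p = 0.0985). Angptl7 fell by 4.81 on the log2 scale (SE 1.00, adjusted p = 0.0422), from 138 ± 91.0 to 5.03 ± 3.85, with counts of 7, 122, 206 and 255 in Control against 1, 7, 4 and 6 in Notch3IC. The groups of Angptl7 overlapped, because of the Control library of Set 1. Angptl7 lost its call without any 1 of the 4 libraries of Sets 3 and 4 (adjusted p up to 0.144). Angptl2 kept its call in 2 of the 8 omissions, those of the Control library of Set 1 and the Notch3IC library of Set 2 (adjusted p up to 0.249 in the other 6).

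Downstream of the receptors, 43 genes of VEGF receptor signaling were listed, and of the 37 tested 0 were called in either direction by edgeR, beside 3.4% (higher) and 0.74% (lower) of all genes tested, with a median log2 fold change of 0.053. An unadjusted p under 0.05 was reached by 9 of them, beside 18.4% of all genes tested. DESeq2 called 2 of the list higher (5.05% of its genes), Nfatc2 and Shc2, which fell below the filter on low counts and were also called by edgeR with no filter. Cdc42, a small GTPase and the most abundant of them per length, averaged 148 ± 15.8 RPKM in Control and 159 ± 31.5 in Notch3IC. With the set as a block 1 was called higher, Sphk1, the kinase that makes sphingosine-1-phosphate (log2 fold change 1.18, adjusted p = 0.0293), beside 5.19% of all genes tested. Of 12 genes known to respond to VEGF in endothelium 7 were tested and 0 were called by edgeR, 1 of them with an unadjusted p under 0.05, with a median of -0.051. DESeq2 called 2 of the list higher, Dll4, a Notch ligand, and Egr2, with at most 1 and 2 counts in Control, and so did edgeR with no expression filter. Dusp5, a phosphatase of ERK and the most abundant of these, averaged 10.8 ± 2.55 and 17.0 ± 7.45 RPKM. With the block Apln, the peptide apelin, was called lower (log2 fold change -1.92, adjusted p = 0.0867), beside 2.53% of all genes tested.

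Upstream of Vegfa, 10 genes of oxygen sensing were listed and 9 tested, with a median log2 fold change of -0.0078. Of these 9, 1 was called higher and 1 lower, beside 3.4% and 0.74% of all genes tested. Epas1, the hypoxia factor HIF-2α, rose from 31.7 ± 5.49 to 295 ± 180 normalized counts (a log2 change of 3.21, SE 0.57, edgeR adjusted p = 0.0284). Egln3, a prolyl hydroxylase that marks hypoxia factors for decay, fell by 1.23 on the log2 scale (SE 0.23, adjusted p = 0.0337), from 792 ± 195 to 338 ± 94.8. Hif1a, the most abundant of the list, had a log2 fold change of -0.16 and was not called. Epas1 lost its call when the Control library of either Set 3 or Set 4 was left out (adjusted p up to 0.109), and Egln3 without any 1 of the 4 libraries of these sets (up to 0.116).

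Secreted modulators of angiogenesis gave 3 calls, all higher, among 16 tested of 17, beside 3.4% of all genes tested, with a median log2 fold change of 0.44. Col18a1, the collagen from which endostatin is cut, rose from 69.1 ± 19.5 to 1559 ± 941 normalized counts (a log2 change of 4.51, SE 0.65, edgeR adjusted p = 0.0182). Serpinf1, pigment epithelium-derived factor, rose from 2392 ± 1112 to 7762 ± 3222 (1.70, SE 0.40, edgeR adjusted p = 0.0604). Vash2, a vasohibin, rose from 145 ± 45.6 to 429 ± 76.2 (1.56, SE 0.25, edgeR adjusted p = 0.0245). Sparc, a matrix protein that binds VEGF, was the most abundant at 756 ± 96.5 and 987 ± 89.4 RPKM and was not called. With the set as a block 6 were called higher, Thbs1, Thbs2 and Vash1 in addition, and 1 lower, Sema3c, beside 5.19% and 2.53% of all genes tested. Serpinf1 was lost without the Notch3IC library of Set 1 or any 1 library of Sets 3 and 4 (adjusted p up to 0.176). Vash2 was lost without the Control library of Set 3 (0.104), while Col18a1 kept its call in all 8 omissions of 1 library. Without all of Set 3 or all of Set 4 none of the 3 was called (edgeR adjusted p up to 0.381, and 0.238 for Col18a1).

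**Figure D5:**
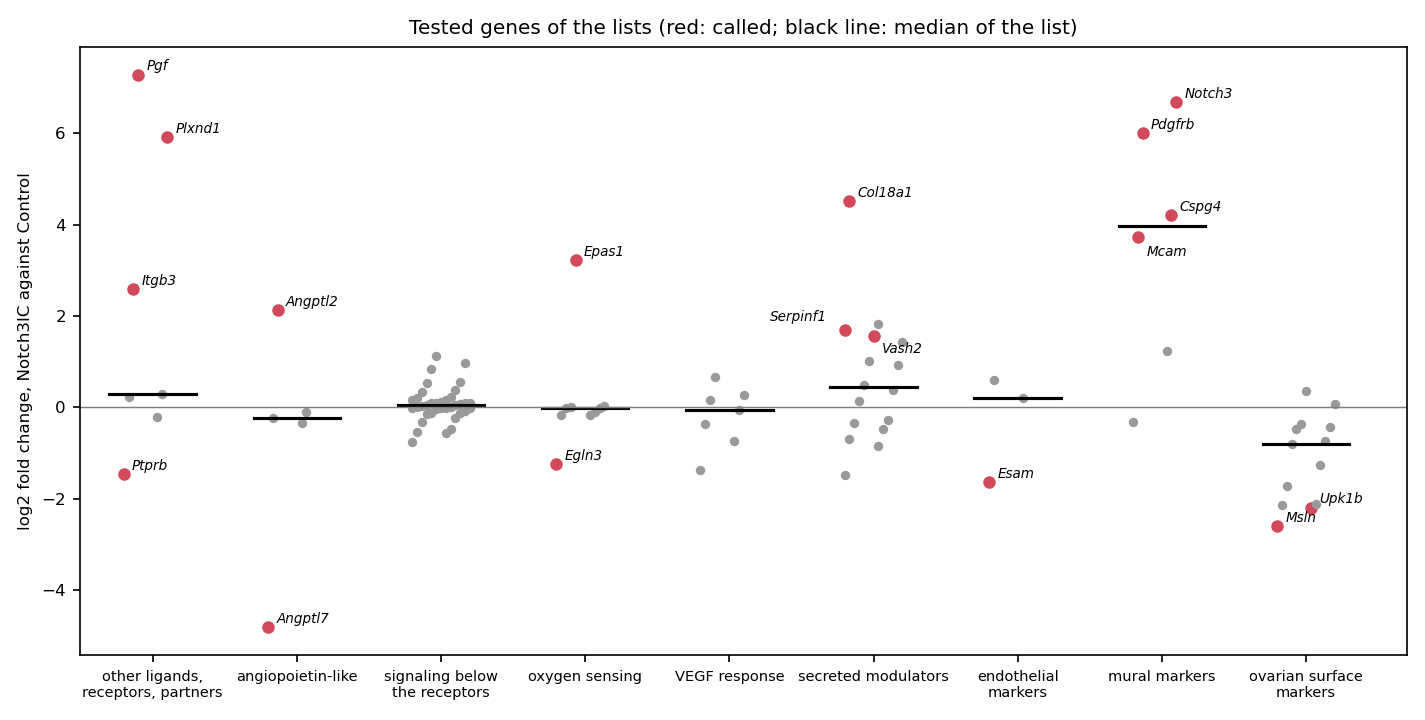
Log2 fold change of Notch3IC against Control for each tested gene of 9 lists, in red where called in the fit with condition alone, with the median of the list as a black line. Pgf, Plxnd1 and Col18a1 rise by more than 4 on the log2 scale, and no gene among the 37 of signaling below the receptors is called.

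Markers of other cells moved beside these genes. Of 10 mural markers 6 were tested, among them Notch3, the transduced gene. Of the other 5, 3 were called higher, where 3.4% of all genes tested were, and 1 had a negative log2 fold change (-0.32). Pdgfrb, the PDGF receptor of pericytes, rose from 90.6 ± 82.0 to 5643 ± 3587 normalized counts (a log2 change of 5.99, edgeR adjusted p = 0.0169). Cspg4 (log2 fold change 4.20) and Mcam (3.73) were the others. Rgs5, a pericyte marker below the filter on low counts, had 1, 2, 3 and 4 counts in Control and 18, 3, 68 and 60 in Notch3IC, and was called higher by DESeq2 and by edgeR with no filter. The summed mural list was 33695, 11397, 7164 and 2973 normalized counts in Control and 82782, 19714, 40613 and 31244 in Notch3IC, or 33656, 11356, 7093 and 2931 against 78460, 19246, 31393 and 25402 with Notch3 left out. Acta2, the smooth muscle actin, was the most abundant and was not called (log2 fold change 1.24, adjusted p = 0.462). In the block fit Acta2 was called higher (1.45, adjusted p = 0.0362), and it was higher in 4 of 4 sets. Abcc9 had at most 3 counts in any library. Mcam lost its call when the Control library of either Set 3 or Set 4 was left out (adjusted p up to 0.104).

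Of the 3 endothelial markers tested Esam was called lower, from 955 ± 292 to 306 ± 145 normalized counts (a log2 change of -1.64, edgeR adjusted p = 0.0596), and 11 of the 16 had at most 10 counts in every library. Of 5 lymphatic markers, Flt4 among them, 2 were tested, and Pdpn, podoplanin, which mesothelial cells also make, fell by 1.20 on the log2 scale (adjusted p = 0.0629). With the set as a block both were called lower, as was Flt4. Shares of all genes called lower were 0.74% with condition alone and 2.53% with the block. Prox1 and Lyve1, which define lymphatic endothelium, had at most 2 and 1 counts in any library, and Ccl21a was at 0 in all 8. The summed lymphatic list, nearly all of it Flt4 and Pdpn, was 3931, 8526, 11693 and 8699 normalized counts in Control and 1164, 5221, 2625 and 2093 in Notch3IC.

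Of 10 leukocyte markers 2 were tested, and Csf1r, a macrophage receptor, rose from 8.67 ± 2.38 to 24.7 ± 11.0 normalized counts (a log2 change of 1.52, edgeR adjusted p = 0.0719), where 3.4% of all genes tested were called higher. Cd68, the other and the most abundant, was not called, at 80.8 ± 29.3 and 61.1 ± 21.4 (log2 fold change -0.40, adjusted p = 0.610), and was lower in 4 of 4 sets. Ptprc, the pan-leukocyte CD45 gene, had at most 2 counts, and Adgre1 and Cd3e were at 0 in all 8 libraries. The summed list was 60.5, 97.9, 93.8 and 128 in Control and 86.1, 90.8, 93.8 and 130 in Notch3IC. Among the 13 tested markers of ovarian surface epithelium, 2 were called lower, Msln (log2 fold change -2.60, adjusted p = 0.0625) and Upk1b (-2.19, adjusted p = 0.0762), with a median of -0.80, where 0.74% of all genes tested were. The block fit called 6 lower (2.53% of all genes) and DESeq2 called 7 lower (1.37%), among them the hardly counted Krt7 and Lgals7. That list summed to 35049, 55347, 82972 and 78420 normalized counts in Control and 16609, 37150, 32914 and 26895 in Notch3IC. The Control library of Set 1 was lowest of the Controls both here and in Flt4. The part of these shifts in the values of the VEGF and angiopoietin genes was not tested. Each of the calls of Esam, Pdpn, Csf1r, Msln and Upk1b was lost without at least 3 of the 8 libraries, always including the Control libraries of Sets 3 and 4, with adjusted p up to 0.180, 0.203, 0.228, 0.195 and 0.232.

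By a fixed rule, the 3 genes with the most similar pattern were taken for each called member, as the highest Pearson correlation of log2 CPM over the 8 libraries among 11039 genes with a mean of at least 50 normalized counts. For Flt1 they were Notch1 (r = 0.996), 4833422C13Rik (0.993) and Hey2 (0.992), a Notch receptor, a transcript of no stated role and a Hey repressor. For Vegfc they were Ttc3 (0.991), Leprel2 (0.988) and Dlx5 (0.979). The 8 points of each pair of genes share their library, depth, condition and set. Mean normalized counts in Control and Notch3IC were 49.3 and 2616 for Notch1, 5.47 and 331 for 4833422C13Rik, and 2.57 and 319 for Hey2, so that all 3 reached the mean of 50 only through the Notch3IC libraries. For Ttc3, a ubiquitin ligase, they were 3437 and 4855.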

How the data were processed

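The authors deposited whole-number read counts per gene symbol, 1 table per library, without normalization, from polyadenylated RNA sequenced as single-end reads. The submitters' processing notes name TopHat, Cufflinks, DESeq and the build mm9; versions, annotation and strand setting are not given in the sources used here. Set 1 to Set 4 were taken from the labels. The 10 members and the lists of related genes were chosen with earlier results of these data known.

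Counts were fitted with edgeR 4.0.16 in R 4.3.3 (filterByExpr by condition, TMM, robust quasi-likelihood F test, condition alone) over 12430 genes, with Benjamini-Hochberg adjustment. The SE is the log2 fold change over the square root of F. The set as a block and DESeq2 1.42.0 were alternatives, as were other scalings (RLE, upper quartile, library totals), filters, thresholds, pseudocounts, and leaving out each library or set. The block without each set and the longest transcript as length were chosen after seeing the data. The biological coefficient of variation was 26.3%, or 14.1% with the block. The numbers pair the libraries by the methods' matched infections. Departures from the group means in the 2 libraries of a set correlated at 0.79, 0.41, 0.57 and 0.43, against -0.51 to 0.40 when crossed. The highest crossed values, 0.39 and 0.40, joined Sets 3 and 4. These sets were also the most alike within a condition, by chi-square per degree of freedom against counting error. It was 13.4 in Control (31.6 to 122 for other pairs) and 18.4 in Notch3IC (69.6 to 130). All sets come from 1 cell line, so p-values measure spread between infections of that line only. With condition alone that spread includes differences between sets that both matched libraries share, which the block takes out.

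RPKM used TMM-scaled totals and merged exons of GENCODE M21 (GRCm38), matched by symbol for 98.8% of genes tested (Python 3.11.15, pandas 2.3.3). Coordinates are of GRCm38 and were not read from the files. Named genes are all members, the called genes of each list (at most 6) and its most abundant gene, the label checks, and the 3 genes most alike to each called member. Thbs1, Thbs2, Vash1, Sema3c, Sphk1, Apln, Nfatc2, Shc2, Dll4, Egr2, Angpt4, Rgs5 and Sox18 were named after their values were seen, as were marker genes at or near 0. On simulated counts 36.2% of genes changed by 1 on the log2 scale, 90.5% by 2 and 95.5% by 3 were recovered. A change of 1 lies at the fold limit itself, so genes estimated below it could not be called. The simulation held no differences between sets in level or in change, unlike these data, so its shares do not carry over to them. No per-sample column was left unused. Figures used Matplotlib 3.10.9.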

Additional observations from a re-analysis of the deposited data

Results flagged for a closer look

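In groups of 4 libraries, a library was singled out where its gap to the nearest of the others exceeded Dixon's 95% critical value. This was the case in 3 of 28 groups searched, where chance gives about 1 in 20. Kdr in Notch3IC had a gap of 0.840 of the range, from 24.6 normalized counts in Set 1 against 8.45 to 11.0 in the others. Angpt1 in Control had 0.859, from 25.1 in Set 2 against 3.96 to 6.94, and it was the Control library without which Angpt1 was called. Notch3 in Control had 0.896, from 70.8 in Set 3 against 38.7 to 42.0.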

How the results depend on the processing

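Under other scalings (RLE, upper quartile, library totals) or no expression filter, no member changed direction or call, nor did the 7 still tested with at least 10 counts in every library. DESeq2 called 708 genes higher and 192 lower, with 1 member lower (Flt4, log2 fold change -1.80) and 18 calls in the pathway lists against 11. The set as a replicate block called 645 higher and 315 lower, with 1 member lower (Flt4, -1.94) and 17 calls in the pathway lists, and changed no other call of a member. At an adjusted p under 0.05, 48 genes were lower, 1 member was higher and Vegfc (1.57) was not called. With no limit on the fold, 210 genes were lower and the pathway lists held 17 calls.

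Leaving out 1 library or set, genes called higher ranged from 0 to 702 and lower from 0 to 305, members called higher from 0 to 3 and lower from 0 to 1, and calls in the pathway lists from 0 to 17. The log2 fold change ranged from 1.16 to 2.08 for Vegfc, 5.71 to 6.35 for Flt1, -2.40 to -1.48 for Flt4, 0.69 to 1.97 for Angpt1, 0.98 to 1.81 for Angpt2, 0.044 to 0.78 for Kdr and -0.14 to 0.054 for Vegfb, whose sign turned when the Notch3IC library of Set 1 (0.054) or all of Set 1 (0.011) was left out. Kdr had no fitted value without all of Set 1, with or without the block, so its range lacks that omission. With the block and without Sets 1, 2, 3 and 4 in turn, 46, 904, 59 and 129 genes were called higher, 23, 426, 22 and 30 lower, 0, 4, 0 and 1 members higher, 1 member lower without Set 2, and 2, 21, 3 and 5 genes of the pathway lists. In those fits Vegfc was not called without Sets 1, 3 and 4 (1.79, 1.56 and 1.24), nor Flt1 without Sets 1 and 3 (5.52 and 5.51), Vegfb turned to 0.0092 without Set 1, and Flt4 (-2.31), Angpt1 (1.84) and Angpt2 (1.54) were called without Set 2. Each of these fits held fewer libraries than the full fit, and the cause of the differences was not tested.

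Over the longest transcript, levels in Control and Notch3IC became 46.6 and 37.0 RPKM for Vegfa, 34.6 and 33.0 for Vegfb, 0.273 and 17.4 for Flt1, 32.8 and 44.7 for Nrp1, 26.0 and 17.0 for Nrp2, and 0.0680 in Control for Kdr, which put Nrp1 above Vegfa in Notch3IC and above Nrp2 in Control. Kdr, Angpt1 and Angpt2 had at most 59 counts in any library, and the part of this low depth in their missing calls was not tested.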
